A study of Rattus norvegicus with 56 samples.

Results

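Rat miR-21-5p was followed in small RNA libraries of the hippocampus after traumatic brain injury (TBI). It is 1 of the 367 mature miRNAs in the table of read counts, and its row was read in all 56 libraries. It was picked by its name, with earlier results of these data known. The libraries come from 28 rats given a fluid percussion injury, in which a pulse of fluid strikes the exposed brain, and from 28 rats given sham surgery. There were 4 rats of each kind at 24 h, 2 weeks, 1 month, 2 months, 3 months, 6 months and 1 year, and each library came from a separate rat. The sources used here give no strain, sex or age, and no injured side for the hippocampus. The interval after surgery, age at sampling and the time of processing cannot be told apart between intervals.

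A miRNA is a short RNA that guides a silencing complex to messenger RNAs, mainly by pairing through its seed, bases 2 to 8. miR-21-5p is the main product of the Mir21 hairpin and is best known as a miRNA induced by tissue injury, inflammation and growth signals, in glia and immune cells among others. Its known targets include Pdcd4, and it is often described as limiting cell death.

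The mature sequence and its hairpin are shown because every value below is a count of reads given to this 1 mature form. They come from RefSeq on rat GRCr8, where the mature miRNA lies at chr10:71902653-71902674 and the hairpin at chr10:71902600-71902691, both on the minus strand. The counts themselves name no genome build. Capitals mark the seed in the mature form and the whole 5p arm in the hairpin.
rno-miR-21-5p: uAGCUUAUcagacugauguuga
Mir21 hairpin: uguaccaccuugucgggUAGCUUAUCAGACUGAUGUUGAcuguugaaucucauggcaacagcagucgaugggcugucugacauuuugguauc
In that annotation Mir21 overlaps no other gene and lies between Tubd1 and Vmp1. Of the 367 names in the count table, 331 matched a RefSeq mature miRNA. None of the other RefSeq rat miRNAs, of 693 in all, has the same bases 2 to 8, so miR-21-5p has no seed family here. Its nearest relative in the table, miR-101a-5p, has the same base at 14 of 22 positions. The 3p arm of Mir21 was not analysed here: 309 of the table's names are 5p arms and 5 are 3p arms.

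The table gave 2083604 to 12468979 counts in 55 libraries and 69628 in the library of TBI rat X747 at 2 months, with a median of 5332934.5 over all 56. miR-21-5p itself had 18372 to 193770 reads in the 55 libraries and 365 in that of X747, so that counting error was at most 0.738% of its value in the former and 5.23% in the latter. These errors cover counting only and not PCR duplicates. Levels are given as CPM, counts per 1000000 counts of a library, with library sizes scaled by TMM over all 56 libraries unless another scale is named. Within the 14 groups of 4 rats the coefficient of variation ran from 9.03% to 32.9% (median 15.4%), so the spread between libraries and not depth set the error. That spread holds differences between rats and between library preparations together. In a fit over all libraries its biological coefficient of variation was 19.1%, against a median of 18.3% over 244 miRNAs.

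miR-21-5p was 3.26-fold higher in TBI than in sham hippocampus at 24 h, and from 2 weeks on no interval passed edgeR's quasi-likelihood test. The 4 sham libraries at 24 h held 4661, 4967, 5967 and 7540 CPM. The 4 TBI libraries held 15180, 19462, 19653 and 21240 CPM. The groups did not overlap, and the lowest TBI library had about double the level of the highest sham library. As means these are 5784 ± 1297 CPM in sham and 18884 ± 2595 CPM in TBI (SD, n = 4 each). The log2 fold change was 1.70 (SE 0.18, 95% interval 1.32 to 2.09), and miR-21-5p rose with an adjusted p = 1.15e-04 in the quasi-likelihood test of edgeR, Benjamini-Hochberg adjusted. At this interval 4 of 233 miRNAs tested were called, 1.72%, and miR-21-5p had the second lowest p. For 9 of the 233 miRNAs, 3.86%, all 4 TBI libraries lay above all 4 sham libraries. In whole tissue, more cells that make a miRNA and more of it per cell cannot be told apart.

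The same change is visible without TMM, as the share of all counts, which scales each library by its total alone. miR-21-5p made up 0.497%, 0.5005%, 0.581% and 0.711% of the counts in the sham libraries at 24 h. In the TBI libraries it made up 1.59%, 1.94%, 2.05% and 2.11%. It was the 25th to the 27th most counted miRNA in these sham libraries and the 11th to the 14th in the TBI libraries. The lowest TBI library at 24 h, at 15180 CPM, was above the highest of the other 52 libraries, at 11821 CPM. When the 14 groups were ordered by their mean, TBI at 24 h was the only group whose libraries did not overlap those of the next group, and the other 12 neighbouring pairs overlapped.

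**Figure D1:**
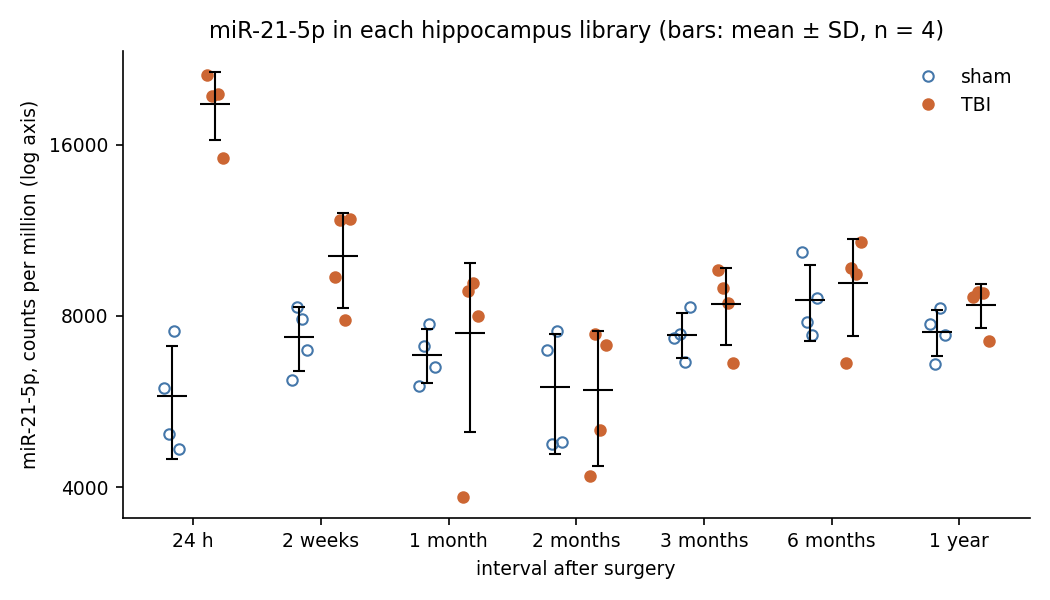
Level of miR-21-5p in CPM (log axis) in each of the 56 libraries, by interval after surgery; open circles are sham and filled circles TBI rats, and bars give the mean ± SD of 4 rats. The 4 TBI libraries at 24 h, at 15180 to 21240 CPM, lie above the other 52 libraries.

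At 2 weeks the level in TBI hippocampus was higher by less. Whether it passed depended on the test and, for the permutation test at its unadjusted p, on the scale. The sham libraries held 6182, 6981, 7905 and 8277 CPM. The TBI libraries held 7881, 9351, 11779 and 11821 CPM. Of the 4 TBI libraries, 3 were above every sham library, and that of rat tube.22 fell inside the sham range. The log2 fold change was 0.49 (SE 0.13, 95% interval 0.20 to 0.79), with an adjusted p = 0.158. At 2 weeks the quasi-likelihood test of edgeR called 0 of 227 miRNAs, 0%, with 21 at an unadjusted p under 0.05. The likelihood ratio test of edgeR called 8 miRNAs and gave miR-21-5p an adjusted p = 0.0175. DESeq2 called 7 by its Wald test and 6 by its likelihood ratio test, with an adjusted p of 0.0339 and 0.0349 for miR-21-5p. Of the 8 quasi-likelihood fits that left out 1 library, 1 passed. It was the fit without rat tube.22, the lowest TBI library, with a log2 fold change of 0.59 and an adjusted p = 0.0213. Without TBI rats tube.24 or tube.23 the log2 fold change was 0.42 and 0.41 (adjusted p = 0.564 and 0.476 in edgeR). Over the 9 other settings the adjusted p at 2 weeks ran from 0.0175 to 0.355.

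The overlap at 2 weeks hung on a few CPM. When the 8 libraries of 2 weeks were scaled on their own, which was tried after the data were seen, the library of tube.22 stood at 7704 CPM and the highest sham library at 7698 CPM, so all 4 TBI libraries were above all 4 sham libraries. On that scale this held for 10 of 227 miRNAs, 4.41%. A two-sided exact permutation test over the 35 distinct regroupings of 8 libraries gave p = 0.0286 on the scale of the interval, the smallest value it allows, and p = 0.0857 on the scale of all 56 libraries. By share of counts, tube.22 had 0.740% and the highest sham library 0.817%.

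From 1 month on, TBI and sham levels overlapped at every interval. At 1 month the sham libraries held 6034, 6492, 7081 and 7755 CPM and the TBI libraries 3849, 8012, 8831 and 9126 CPM. Here 3 TBI libraries were above every sham library, while rat X756 had the lowest level of all 56 libraries. The log2 fold change at 1 month was 0.18 (SE 0.23, 95% interval -0.32 to 0.68; adjusted p = 0.700), and 1 of 240 miRNAs was called, 0.417%. At 2 months the sham libraries held 4766, 4796, 6956 and 7525 CPM and the TBI libraries 4190, 5032, 7105 and 7423 CPM, so both groups covered the same range. The log2 fold change at 2 months was -0.03 (SE 0.22, 95% interval -0.51 to 0.45; adjusted p = 0.980), and without the shallow library of X747 it was 0.08 (adjusted p = 0.923). No miRNA was called at 2 months (0 of 236, 0%; 20 at an unadjusted p under 0.05) by the quasi-likelihood test of edgeR, against 1 or 2 by its likelihood ratio test and by DESeq2.

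At 3 months the sham libraries held 6629, 7327, 7439 and 8279 CPM and the TBI libraries 6622, 8423, 8945 and 9646 CPM. Again 3 TBI libraries were above all sham libraries, and the library of rat X94 was just below the lowest sham library. The log2 fold change at 3 months was 0.22 (SE 0.10, 95% interval -0.02 to 0.45; adjusted p = 0.547). At 6 months the sham libraries held 7392, 7806, 8587 and 10353 CPM and the TBI libraries 6616, 9473, 9728 and 10777 CPM. Only 1 TBI library exceeded every sham library at 6 months, and the log2 fold change was 0.09 (SE 0.13, 95% interval -0.20 to 0.39; adjusted p = 0.963). At 1 year the sham libraries held 6590, 7394, 7748 and 8276 CPM and the TBI libraries 7233, 8619, 8782 and 8799 CPM. The log2 fold change at 1 year was 0.14 (SE 0.08, 95% interval -0.03 to 0.32; adjusted p = 0.450), with 3 TBI libraries above every sham library and rat X84 inside the sham range. The quasi-likelihood test of edgeR called 0 miRNAs at each of these 3 intervals (0% of 220, 224 and 225, with 13, 10 and 18 at an unadjusted p under 0.05). The other tests called at most 1 miRNA, at 3 months by DESeq2, and it was not miR-21-5p, whose adjusted p there was 0.675 in both tests of DESeq2.

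For the single miRNA, the two-sided exact permutation test of log2 CPM gave p = 0.0286 at 24 h, the smallest value the design allows. The exact p was 0.0857 at 2 weeks, 0.914 at 1 month, 0.886 at 2 months, 0.257 at 3 months, 0.657 at 6 months and 0.2 at 1 year. Adjusted over the 7 intervals, the exact permutation p at 24 h was 0.2, so with 4 rats against 4 this test cannot pass a threshold of 0.05 after adjustment unless several intervals reach its smallest value.

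**Figure D2:**
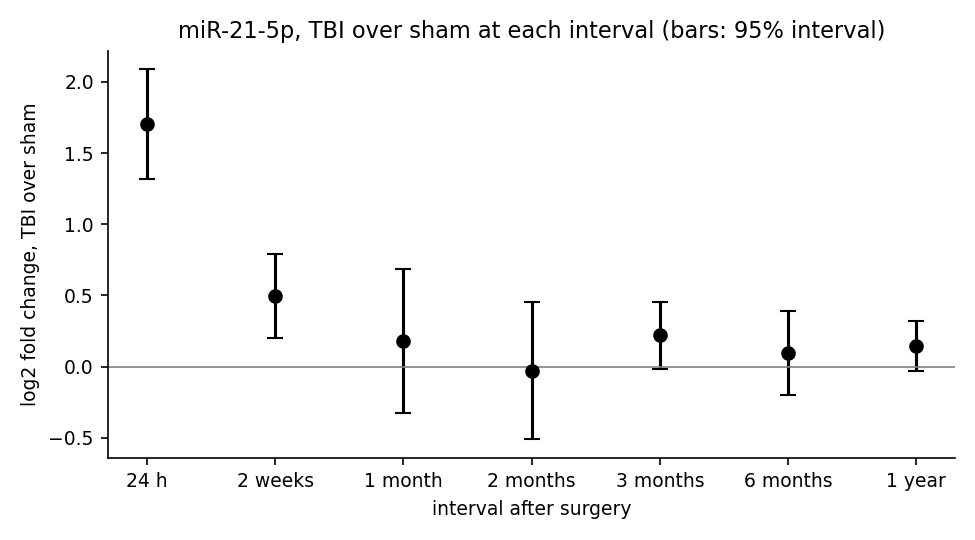
Log2 fold change of miR-21-5p, TBI over sham, at each interval after surgery; points are edgeR estimates from 4 TBI and 4 sham libraries and bars the 95% interval. The interval at 24 h (1.32 to 2.09) lies above the other 6, and that at 2 weeks (0.20 to 0.79) is the only later interval above 0.

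The fall of the effect after 24 h was tested directly, in 1 fit over all 56 libraries. The 6 terms that let the TBI effect differ between intervals gave an adjusted p = 5.52e-05 for miR-21-5p, and 7 of 244 miRNAs were called, 2.87%. The effect at 24 h exceeded that at 2 weeks by 1.23 on the log2 scale (SE 0.27, adjusted p = 0.0045; 0.82% of miRNAs called). It exceeded the effect at 1 month by 1.58 (6.97% called) and that at 2 months by 1.70 (1.64% called). For 3 months, 6 months and 1 year the differences were 1.53, 1.61 and 1.55 (1.23% called in each). The SE of these differences was 0.27 and the largest adjusted p among the 5 later ones was 1.55e-04. These 6 differences share the libraries of 24 h.

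Whether a small effect was left after 24 h was asked by combining the later rats. Over 2 weeks to 1 year, with interval as a covariate, the log2 fold change was 0.16 (SE 0.08, 95% interval 0.01 to 0.31) and the adjusted p = 0.290 in edgeR (1.24% of 241 miRNAs called). TBI was higher in 5 of the 6 intervals, and a permutation test within intervals gave p = 0.0738. Without 2 weeks the log2 fold change was 0.11 (SE 0.08, adjusted p = 0.604; 1.25% of 240 called), and the permutation test gave p = 0.337. Of the 24 TBI libraries from 2 weeks on, 19 lay inside the range of the 28 sham libraries (4661 to 10353 CPM) and 3 above it, of which 2 were from 2 weeks. Among those 24 TBI libraries the level did not pass the test for a difference between intervals (adjusted p = 0.0861; 21.1% of 237 miRNAs called), and without rat X756 at 1 month the adjusted p was 0.0258.

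Another 3 miRNAs were called at 24 h, all of them higher in TBI. miR-155-5p, which activated immune cells make, had the largest fold change and was the rarest of these miRNAs in sham hippocampus. It held 7.20, 8.89, 9.05 and 10.8 CPM in sham and 46.6, 51.5, 66.0 and 71.6 CPM in TBI libraries, and rose by 2.76 on the log2 scale (SE 0.22, adjusted p = 1.39e-05). miR-27a-5p, from the hairpin of the miR-23a/27a/24-2 cluster, held 12.7 to 18.9 CPM in sham and 28.02 to 36.1 CPM in TBI libraries (log2 fold change 1.00, SE 0.19, adjusted p = 0.0247). miR-20a-5p, of the miR-17-92 cluster of growth-promoting miRNAs, held 139 to 218 CPM in sham and 297 to 366 CPM in TBI libraries (log2 fold change 0.81, SE 0.17, adjusted p = 0.0341). miR-21-5p was the most abundant of the 4 in each of the 8 libraries.

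**Figure D3:**
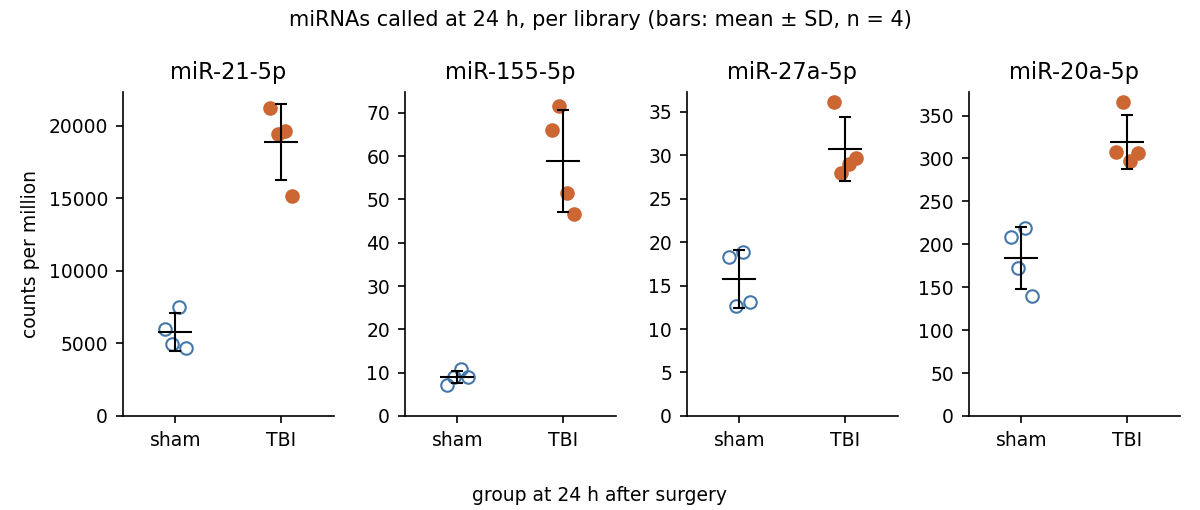
CPM (linear axes from 0, a separate scale for each miRNA) of the 4 miRNAs called at 24 h in each sham (open) and TBI (filled) library, with mean ± SD of 4 rats. In each panel all 4 TBI libraries are above all 4 sham libraries, with miR-21-5p at 15180 to 21240 CPM and miR-155-5p at 46.6 to 71.6 CPM in TBI.

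A list of 17 other miRNAs widely linked to inflammation and injury was read beside miR-21-5p, and 15 of them could be tested at 24 h. Of the 15, the 3 just named rose and 0 fell, against 1.72% of all miRNAs called, and the median log2 fold change was 0.12 against -0.01 over all miRNAs tested. miR-142-5p, a miRNA of blood-forming cells, had a log2 fold change of 0.54 (adjusted p = 0.271) and miR-17-5p, from the cluster of miR-20a, also 0.54 (adjusted p = 0.219). miR-146a-5p, a brake on inflammatory signalling, had 0.43 at 24 h (adjusted p = 0.579) and was the 1 listed miRNA called at 1 month, where 0.417% of all miRNAs were called. At the other 5 intervals edgeR's quasi-likelihood test called no listed miRNA and 0% of all miRNAs. The members and the list were chosen with results of these data known, so nothing particular to the list is read from these counts.

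Markers of other cell types were read beside these results. The lists cover neurons, leukocytes or microglia, red blood cells, vessel wall, choroid plexus and oligodendrocytes. No listed miRNA that could be tested was called for TBI against sham within any interval in edgeR's quasi-likelihood test. At each interval 7 of 8 neuron and 2 of 3 leukocyte or microglia miRNAs could be tested, and at 3 months 2 of 3 oligodendrocyte miRNAs. The untested ones could not be called. Since 1.72% of all miRNAs were called at 24 h, 0.417% at 1 month and 0% at the other 5 intervals, a count of 0 among these markers is near the background and nothing is read from it. Every marker in the table had reads in every group. The neuron list summed to 203543 to 281494 CPM in sham and to 204947 to 257909 CPM in TBI libraries at 24 h. The red blood cell list ran from 267 to 417 CPM in sham and from 223 to 376 CPM in TBI, and the vessel wall list from 861 to 1303 CPM and from 966 to 1410 CPM. These ranges overlapped, as did those of the choroid plexus list (1441 to 5115 CPM in sham, 1566 to 4338 CPM in TBI) and of the oligodendrocyte list (1631 to 3317 and 1869 to 2546 CPM). These lists hold 5p arms for the most part, which are the minor arm of several of these miRNAs.

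The 3 leukocyte or microglia miRNAs did not move alike at 24 h. Their sum was 1140 to 2387 CPM in sham and 1176 to 1552 CPM in TBI libraries, and most of it was miR-150-5p, a miRNA of mature lymphocytes, at 1007 to 2261 CPM in sham and 978 to 1338 CPM in TBI (log2 fold change -0.29, adjusted p = 0.980 in edgeR). miR-142-5p held 126, 131, 132 and 149 CPM in sham and 142, 192, 208 and 237 CPM in TBI libraries, so 3 TBI libraries were above every sham library (log2 fold change 0.54, adjusted p = 0.271 in edgeR). miR-223-5p, a miRNA of myeloid cells, was too low to be tested within any single interval. It had 0, 1, 3 and 3 reads in the sham libraries of 24 h, against 1, 26, 35 and 61 reads in the TBI libraries, which is up to 0.393 CPM in sham and 0.268, 6.13, 6.27 and 8.17 CPM in TBI. The TBI library with 1 read, that of rat X454, was inside the sham range. In the fit over all libraries the TBI effect on miR-223-5p differed between intervals (adjusted p = 1.65e-05 in edgeR), as did that on miR-155-5p (adjusted p = 9.75e-06) and miR-146a-5p (adjusted p = 0.00396). The effect on miR-223-5p at 24 h exceeded those at 2 weeks, 1 month, 2 months, 3 months and 1 year by 4.37, 4.45, 3.56, 3.85 and 4.94 on the log2 scale, each called. The difference from the effect at 6 months did not pass the test (adjusted p = 0.466 in edgeR). The mean of miR-223-5p over the 56 libraries was 0.967 CPM, and the filter of this fit counted the TBI libraries of 24 h. These differences therefore rest on few reads and on a group that helped it into the fit. By its reads, miR-223-5p was high together with miR-21-5p in 3 of the 4 TBI libraries of 24 h. Its part in the miR-21-5p result was not tested.

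Among the oligodendrocyte markers, the TBI effect on miR-3065-5p also differed between intervals in that fit (adjusted p = 0.00788 in edgeR). The effects on miR-219a-5p and miR-338-5p, from the same list, did not pass that test (adjusted p = 0.477 and 0.917 in edgeR). At 24 h their log2 fold changes were -0.14 and -0.07 (adjusted p = 0.980 for each in edgeR). The effect on miR-3065-5p at 24 h exceeded that at 1 month by 1.87 on the log2 scale (adjusted p = 0.0163 in edgeR) and that at 6 months by 2.46 (adjusted p = 0.0397). Its differences from 2 weeks, 2 months, 3 months and 1 year were 1.60, -0.14, 0.26 and 1.04, and none of these passed. At 2 months its log2 fold change was 0.91 (adjusted p = 0.544 in edgeR), near that at 24 h. At 24 h miR-3065-5p held 1.44 to 2.26 CPM in sham and 2.61 to 5.65 CPM in TBI libraries. All 4 TBI libraries were above all 4 sham libraries, as for 3.86% of the 233 miRNAs tested. These values rest on only 7 to 22 reads in sham and 15 to 26 reads in TBI libraries. Its log2 fold change of 0.85 (SE 0.30) did not pass the test (adjusted p = 0.464 in edgeR). Its part in the miR-21-5p result was not tested.

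The level of miR-21-5p in sham hippocampus was lowest at 24 h and highest at 6 months. Group means were 5784 ± 1297 CPM at 24 h, 7336 ± 943 at 2 weeks, 6840 ± 745 at 1 month, 6011 ± 1439 at 2 months, 7419 ± 676 at 3 months, 8535 ± 1310 at 6 months and 7502 ± 708 CPM at 1 year (SD, n = 4 each). Neighbouring groups in this order overlapped. As a share of counts, sham libraries went from 0.572% ± 0.100 at 24 h to 0.838% ± 0.147 at 6 months. The test across all 7 sham groups gave an adjusted p = 0.0547 in a comparison that called 27.1% of 240 miRNAs. Under the other settings the adjusted p across sham groups ran from 0.0107 to 0.0847, and it passed in 9 of the 28 fits that left out 1 library.

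Set against sham at 24 h, sham at 6 months was higher by 0.57 on the log2 scale (SE 0.15, 95% interval 0.25 to 0.88), which is 1.48-fold, with an adjusted p = 0.0366 (6.25% of miRNAs called). The lowest of the 4 sham libraries at 6 months (7392 CPM) was below the highest at 24 h (7540 CPM). The call was lost in 5 of the 28 fits that left out 1 library, while the difference kept its direction. Leaving out rat X599 of 24 h gave 0.50 (adjusted p = 0.0677) and leaving out rat X594 of 24 h 0.47 (adjusted p = 0.138). Leaving out replicate 1, 2 or 4 of 6 months gave 0.46, 0.60 and 0.56 (adjusted p = 0.105, 0.0694 and 0.0625 in edgeR). The contrast called 15 miRNAs, of which 9 rose, and the 5 others with the lowest adjusted p are named here. They were miR-6215 (log2 difference 3.82), miR-195-5p (0.56) and miR-411-5p (0.45), which rose, and miR-92b-5p and miR-298-5p, which fell by 0.72 and 0.53. miR-6215 was scarce, with a mean log2 CPM of 1.29.

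At the other intervals the sham level did not pass the test against 24 h. The log2 difference was 0.35 at 2 weeks (adjusted p = 0.319; 0 of 240 miRNAs called, 0%, with 34 at an unadjusted p under 0.05, and 2 or 3 called by the other tests). It was 0.24 at 1 month (adjusted p = 0.496; 1.25% called), 0.05 at 2 months (adjusted p = 0.826; 18.8% called), 0.36 at 3 months (adjusted p = 0.192; 3.75% called) and 0.38 at 1 year (adjusted p = 0.179; 1.67% called). Without rat X461 of 24 h, the sham library with the highest level there, the difference at 3 months was 0.53 (adjusted p = 0.0421). These 6 differences share the 4 sham libraries of 24 h. The summed choroid plexus list was also high in some sham libraries, up to 20842 CPM at 3 months and 19382 CPM at 1 year, and its part in these differences was not tested.

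A trend over the year was fitted on the logarithm of days. The slope was 0.049 log2 units per doubling of time (SE 0.017, adjusted p = 0.137; 3.75% of miRNAs called). Over the 28 sham libraries Pearson's r was 0.478 (permutation p = 0.00985, 0.0197 after adjustment over 2 relations) and Spearman's rho 0.418 (permutation p = 0.0279 before and after adjustment). The 4 libraries of 24 h were equally far from the median time, and 2 of them, of rats X457 and X599, were left out by their order alone. Without these 2 libraries r was 0.362 (permutation p = 0.0652), and without the 4 libraries of 24 h it was 0.259 (permutation p = 0.226). The relation passed in neither of these fits, so it depended on the libraries of 24 h, and leaving out 24 h also shortens the range of time. The contrast of TBI with sham at 24 h is thus made against the sham group with the lowest mean, yet the TBI libraries of 24 h were also above the highest sham library of any interval (10353 CPM).

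**Figure D4:**
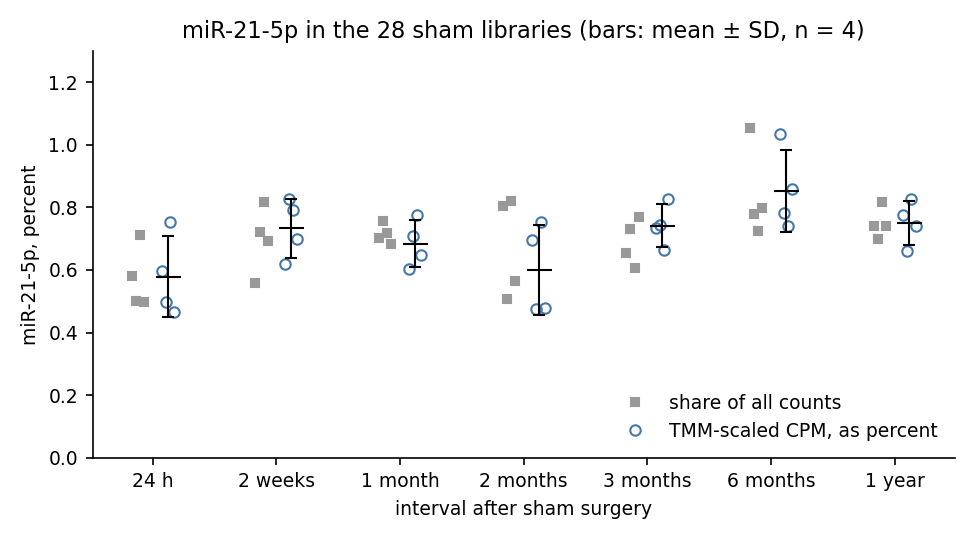
miR-21-5p in the 28 sham libraries by interval after surgery, in percent, as the share of all counts (grey squares) and as TMM-scaled CPM expressed as a percent (open circles, with mean ± SD of 4 rats). Sham at 24 h has the lowest mean (5784 CPM) and sham at 6 months the highest (8535 CPM), and their libraries overlap.

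The miRNAs whose pattern was most like that of miR-21-5p were found by Pearson's r of log2 CPM over the 56 libraries, among 243 miRNAs, as a description. miR-155-5p came first with 0.65, then miR-223-5p with 0.57, and let-7f-5p, miR-27a-5p and miR-872-5p with 0.55 each. The lowest were -0.53 for miR-425-5p, -0.53 for miR-139-5p and -0.48 for miR-29b-5p. Without the 4 TBI libraries of 24 h, r was 0.37 for miR-155-5p, 0.34 for miR-223-5p and 0.30 for miR-27a-5p, while it was 0.58 for let-7f-5p and 0.76 for miR-872-5p. The likeness of miR-155-5p and miR-27a-5p to miR-21-5p was therefore weaker outside those 4 libraries.

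A different set came out when the group mean was first taken from each value, which leaves only how libraries of the same group differ. Each rat gave 1 library, so differences between rats and between library preparations cannot be told apart there. Here let-7g-5p (r = 0.72), miR-872-5p (0.70), let-7f-5p (0.69), miR-26b-5p (0.66) and miR-32-5p (0.62) were most like miR-21-5p. The lowest were miR-377-5p (-0.58), miR-337-5p (-0.57) and miR-543-5p (-0.49), which were picked for display after their values were seen. Their sequences, from RefSeq, are shown with every G and C in capitals because the first group is poor and the second rich in these bases.
rno-miR-21-5p: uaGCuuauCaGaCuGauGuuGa
rno-let-7g-5p: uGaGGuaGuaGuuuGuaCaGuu
rno-miR-872-5p: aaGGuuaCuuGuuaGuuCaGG
rno-let-7f-5p: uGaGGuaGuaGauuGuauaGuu
rno-miR-377-5p: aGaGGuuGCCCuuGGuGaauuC
rno-miR-337-5p: CGGCGuCauGCaGGaGuuGau
The GC content was 36.4% in miR-21-5p, 31.8% to 38.1% in the 5 most alike and 50% to 57.1% in the 3 least alike, against a median of 45.8% over 221 miRNAs with a sequence. Across these 221 miRNAs, GC content and likeness within groups had a Pearson's r of -0.44, over miRNAs that share the same libraries and are not independent. The median r with miR-21-5p was 0.31 for the 49 miRNAs under 40% GC and -0.01 for the 86 of 50% or more.

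**Figure D5:**
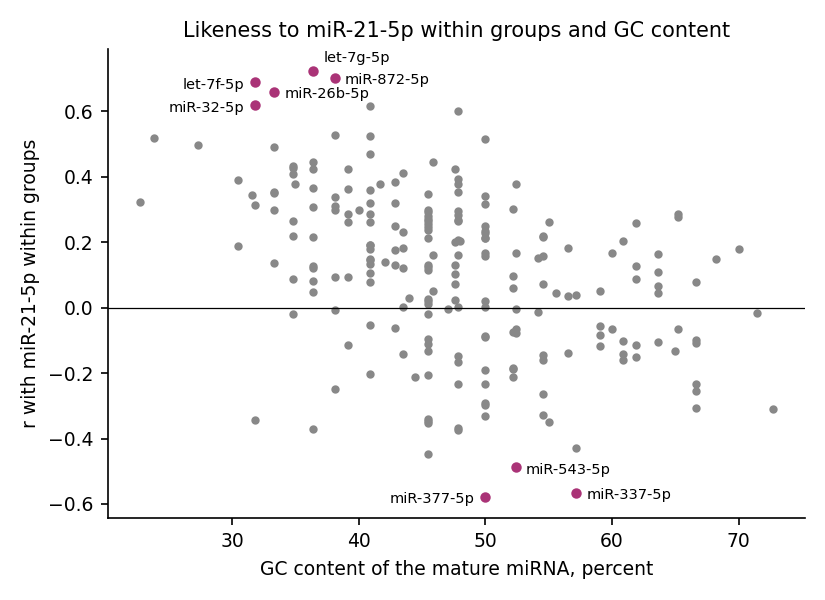
Pearson's r with miR-21-5p within groups (56 libraries, group means removed) against the GC content of the mature miRNA in percent, 1 point for each of 221 miRNAs, with the 5 highest and 3 lowest named. The named miRNAs at the top have 31.8% to 38.1% GC and those at the bottom 50% to 57.1%.

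Because of this, the levels of miR-21-5p were also set against 36 other miRNAs of like GC content (within 5 percentage points, mean log2 CPM over 7), an alternative added after the data were seen. The median within-group SD of miR-21-5p was 0.22 on the log2 CPM scale and 0.17 relative to these miRNAs. The 36 include let-7g-5p, miR-872-5p, let-7f-5p and miR-26b-5p, named above for their likeness within groups. A lower SD was therefore partly built in, and nothing is read from it. At 24 h the TBI libraries stood 1.69 above sham on the log2 scale relative to these miRNAs (exact permutation p = 0.0286) and at 2 weeks 0.51 (exact permutation p = 0.0571). The largest shift was at 1 month, where the 36 miRNAs were themselves lower in TBI (mean deviation -0.26 on the log2 scale) and the difference of miR-21-5p went from 0.05 to 0.31 (exact permutation p = 0.257). Sham at 6 months stood 0.53 above sham at 24 h relative to the 36 miRNAs and 0.58 on the log2 CPM scale.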

How the data were processed

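Hippocampal RNA (Ribopure) was made into libraries with the NEBNext small RNA kit and sequenced on a NextSeq550, and per the paper's methods the authors removed adapters and assigned reads to mature miRNAs of miRBase with miRDeep2. The submitters' processing notes name bcl2fastq 2.20.0.422. The deposited values are raw counts without normalization, and how reads that match several miRNAs were divided, and the genome build, are not given in the sources used here. Library sizes are totals over the 367 miRNAs of the table.

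Each interval was fitted on its 8 libraries with edgeR 4.0.16 (R 4.3.3): low counts were removed by filterByExpr, libraries scaled by TMM, and quasi-likelihood p-values adjusted by Benjamini-Hochberg over all miRNAs tested, at a threshold of 0.05. Interaction, pooled and sham fits used all 56, the later 48 or 40, and the 28 sham libraries. The SE is the log2 fold change over the square root of F. Log2 CPM used a prior count of 2, and permutation tests were two-sided, exact or with 100000 resamples. Alternatives included DESeq2 1.42.0, other scalings, filters and tests, and each library left out. The run is not in the labels and was no covariate. No 2 libraries of a group agreed within sampling noise (84 pairs). Tables and figures used Python 3.11.15 and matplotlib 3.10.9, and the fits were tested on simulated data.

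miR-21-5p, the lists and the tests were chosen with earlier results of these data known. Named miRNAs are those called with miR-21-5p (at most 5 per comparison by adjusted p), the 5 highest and 3 lowest in likeness, and the listed ones.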

Additional observations from a re-analysis of the deposited data

Results flagged for a closer look

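In the TBI group of 1 year, rat X84 had 7233 CPM of miR-21-5p and stood apart from the other 3 rats, at 8619 to 8799 CPM. This gap was beyond the limit of Dixon's test for 4 samples in 1 of 14 groups examined, and chance would give 0.7 groups. Without this rat the difference between TBI and sham at 1 year still did not pass the test.

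The TBI effect on miR-21-5p differed between intervals (adjusted p = 5.52e-05 in edgeR for the 6 interaction terms). The effect at 24 h exceeded those at 2 weeks, 1 month, 2 months, 3 months, 6 months and 1 year by 1.23, 1.58, 1.70, 1.53, 1.61 and 1.55 on the log2 scale, each past the threshold.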

How the results depend on the processing

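Of 1076 alternatives, 1028 kept direction and side of the threshold, 25 passed it anew, 5 lost it and 18 reversed. Permutation tests were counted here at their unadjusted p. At 24 h all 9 other settings gave log2 fold changes of 1.68 to 1.75 and leaving out a rat 1.61 to 1.86. The interaction and its 6 differences held in every alternative run. At 2 weeks the fold change was 0.49 by edgeR's likelihood ratio test and by DESeq2's Wald and likelihood ratio tests, which passed, and 0.41 to 0.59 without a rat, where leaving out tube.22 passed. The permutation difference was 0.48 on the interval's own scale, which passed only at its unadjusted p, and 0.39 to 0.58 without a rat. At 1 month these ranges were -0.0072 to 0.40 in edgeR and -0.071 to 0.34 by permutation, and at 2 months -0.13 to 0.11 and -0.15 to 0.13; the fit of all 56 libraries gave 0.0042 at 2 months. Scaling by total count moved the value at 2 months to -0.16. The adjusted p across sham intervals was 0.0266 with DESeq2's size factors, 0.0220 without a filter, 0.0266 by edgeR's and 0.0107 by DESeq2's likelihood ratio test, and 0.0119 (without X461 of 24 h) to 0.122 without a library, passing also without sham replicates 1 or 4 of 2 weeks, 1 or 3 of 1 month, 1 or 3 of 2 months, 3 of 6 months or 2 of 1 year. Leaving out a rat gave 0.12 to 0.29 for TBI against sham at 3 months (without TBI replicates 1 and 4) and 0.035 to 0.21 at 6 months (without TBI replicates 4 and 1), none past the threshold. Leave-one-out gave 0.17 (without X594) to 0.44 (without X461) for sham at 1 month minus 24 h, neither past the threshold, -0.026 to 0.23 for sham at 2 months minus 24 h, 0.27 to 0.53 for 3 months (past the threshold without X461), 0.46 to 0.71 for 6 months, and 0.0398 to 0.0637 for the sham slope, which passed without X461 or either of X777 and X776 of 2 months. Across TBI intervals the adjusted p was 0.0466 by edgeR's likelihood ratio test and 0.0258 (without X756) to 0.202 without a library. The cause of these changes was not tested. Each of the 28 numbers in the library titles is shared by 2 libraries, and 24 of them by 2 libraries of 1 group. The labels do not give the meaning of these numbers, and their part in the spread within groups was not tested. Sham libraries of 2 months held 6956 and 7525 CPM under number 25 and 4766 and 4796 CPM under number 26. At 1 month those under number 21, at 6034 and 7755 CPM, lay around those under number 22, at 6492 and 7081 CPM. At 1 year 4 numbers are shared by sham and TBI. Deviations of same-numbered pairs there correlated at -0.17 to 0.33, so the numbers were not read as pairs. A replicate block in edgeR gave 0.14 (adjusted p = 0.541). Depth limits the library of X747 only: without it the pooled later effect was 0.19 (adjusted p = 0.239).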
